A study of Mus musculus with 8 samples.

Results

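The genes described here are the ligands, receptors and antagonists of the TGF-beta and BMP family, with the proteins that hold TGF-beta in the matrix, in mouse tendon stem cells (TSCs) cultured in 2 media. They were taken as the rows of the expression table whose gene symbol has the form of a Tgfb, Bmp, Gdf or Inhb gene. Also taken were Inha, the Tgfbr, Bmpr and Acvr receptor genes, the Ltbp, follistatin and chordin genes, other named antagonists such as Grem1 or Nog, and Tgfbi. The rule used names only, so it also took in the protease gene Bmp1, the kinase gene Bmp2k and the follistatin-like Fstl genes. In all it found 58 of the 19301 genes in the table. They lie on 19 chromosomes, and the table's own annotation places 33 of them in the KEGG TGF-beta signaling pathway. Members of this family are secreted dimers that bring together type II and type I receptor kinases on the cell surface. The activated type I receptor phosphorylates SMAD2 and SMAD3 (TGF-beta and activin) or SMAD1, SMAD5 and SMAD9 (most BMPs and several GDFs), which then enter the nucleus and act on target genes. In tendon, TGF-beta is known as an inducer of the tendon transcription factor Scx and of collagen, and BMPs are known as inducers of cartilage and bone.

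The TSCs were primary cells from the patellar tendon of C57BL/6J mice, freed with collagenase and grown in culture. One group was cultured for 4 days in HFHG medium (high fat, high glucose: high glucose with palmitic acid, a saturated fatty acid) and the other in low glucose medium with DMSO (LG), with 4 libraries of stranded mRNA-seq each. The comparison asks how gene expression in TSCs differs under a fat and glucose load, and fat and glucose were changed together, so their parts cannot be told apart. Expression is given as FPKM, the fragments on a gene divided by its length and by a total for the library. This allows levels of different genes to be set side by side. The totals were recovered from the FPKM and ran from 34308108 to 37362725 reads. Of these reads, 99.8% to 99.9% lay on the listed genes, so the full depth of the libraries is not known from them. The replicates are named biological, but the sources used here do not say whether each came from its own animal, so p-values measure the spread between these samples. All values in a library are listed in the order of replicates 1 to 4.

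The label of the cells was set against marker genes. Of 15 markers of tendon cells and fibroblasts, all passed the filter on low values, 11 of them higher and 3 lower in HFHG, and their summed level was 3393 to 3438 FPKM in HFHG and 2257 to 2280 FPKM in LG. Marker counts here and below stand against 34.0% of all genes tested being higher and 30.8% lower in HFHG. The tendon markers proper were low and did not move together: Scx was at a mean of 2.27 FPKM in HFHG and 1.45 FPKM in LG and Tnmd at 1.10 and 0.614 FPKM, both higher in HFHG, while Mkx, at 6.73 and 8.62 FPKM, was lower. Macrophage markers were also present, with 11 of 12 above the filter, 9 of them lower and 0 higher in HFHG. Their summed level was 1768 to 1818 FPKM in HFHG against 1957 to 2043 FPKM in LG, most of it the lysozyme gene Lyz2, and the complement gene C1qa was at 18.6 and 36.6 FPKM. Their part in the results below was not tested, and in bulk RNA a different share of such cells and a different amount of RNA per cell cannot be told apart. Markers of endothelial cells, skeletal muscle, chondrocytes, adipocytes, mast and T cells and osteoblasts each summed to less than 5 FPKM in every library.

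Most of the expressed family was higher in HFHG. Of the 58 genes, 48 had reads in all 8 libraries and 40 passed the filter of at least 0.5 FPKM in at least 4 libraries. Among these 40, 29 were higher in HFHG at an adjusted p-value below 0.05 (72.5%, where 34.0% of all 11710 genes tested were higher), 6 were lower (15%, where 30.8% of all genes were lower) and 5 did not pass the threshold. Counts within a role, given below, cover few genes and stand against these same shares of all genes. The second threshold, a log2 fold change beyond 1 with an unadjusted p-value below 0.05, was passed by 9 members in the higher direction (22.5%, against 3.68% of all genes) and by 0 in the lower direction (against 1.65%). With 1 FPKM added in place of 0.1 before taking logarithms, members near or below 1 FPKM kept their direction and their call, but Gdf10, Tgfb2, Chrdl1, Bmp8a, Bmp5, Gdf5 and Bmp2 came to log2 fold changes of 0.94, 0.53, 0.50, 0.58, 0.33, 0.30 and -0.26, which left 6 past 2-fold. The values of the groups did not overlap for 31 of the 40 (77.5%, against 59.2% of all genes). The median log2 fold change of the 40 was 0.43, and that of all genes tested was 0.017.

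A member could pass the filter through the HFHG libraries alone, as Gdf10 and Tgfb2 did, each below 0.5 FPKM in every LG library. The filter admitted these genes only because they were high in HFHG, so it partly set their calls as higher. The counts were therefore also made on genes with at least 0.5 FPKM in all 8 libraries. Of the 35 members that met this, 25 were higher (71.4%), 5 were lower (14.3%) and 6 exceeded 2-fold (17.1%). Over all 11034 such genes the shares were 33.4% higher, 31.6% lower and 2.66% more than 2-fold higher. Without LG replicate 4, which stood apart from the other LG libraries on the second principal component, 29 of the 40 members were higher, 6 lower and 9 more than 2-fold higher.

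**Figure D1:**
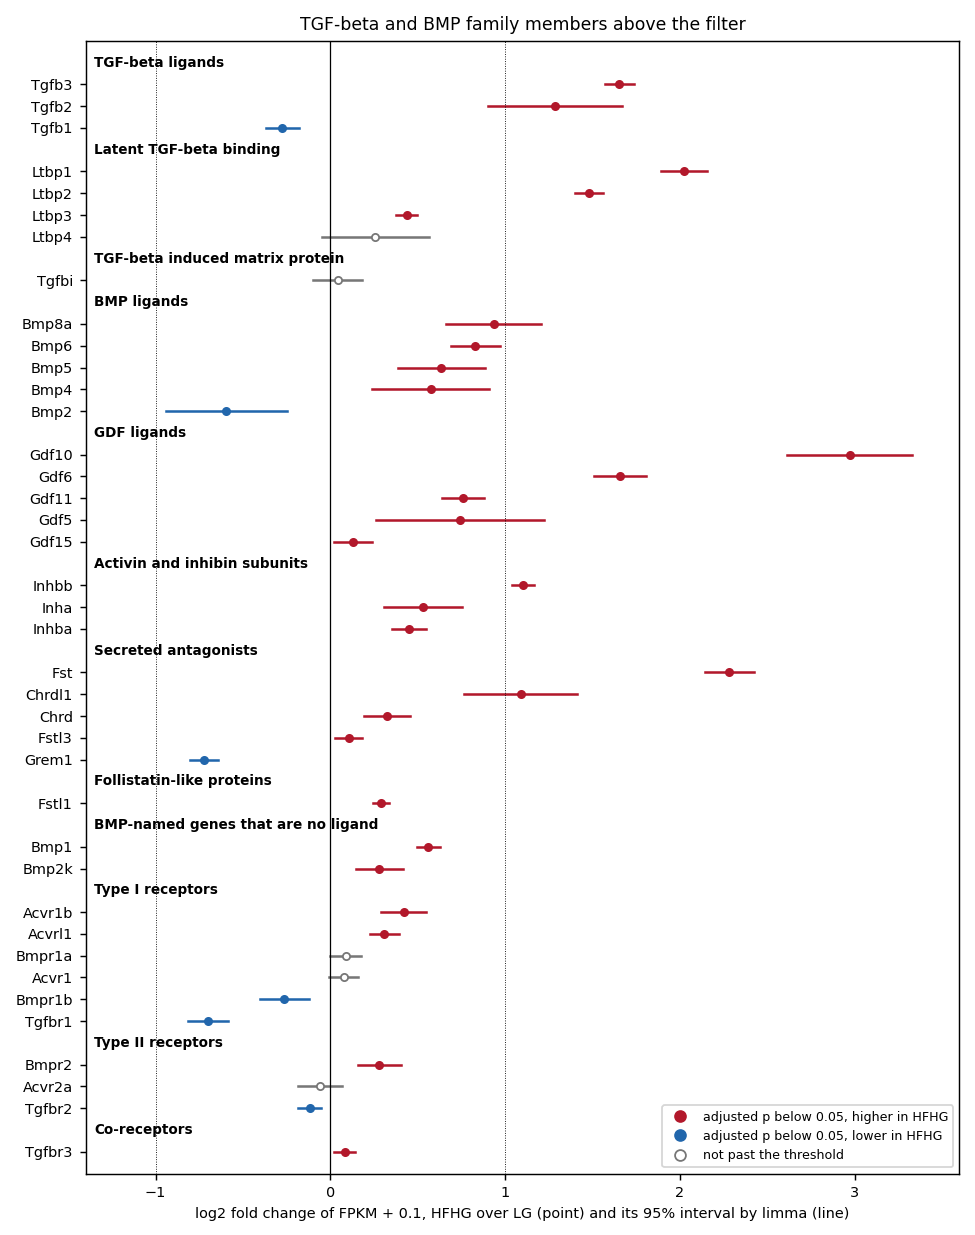
Log2 fold change of FPKM + 0.1, HFHG over LG, with its 95% interval (x axis), for 39 of the 40 members above the filter, in groups by role (y axis). The 9 genes to the right of 1 are ligands, latent TGF-beta binding proteins and antagonists, and every receptor lies between -0.70 and 0.42.

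The 9 members past 2-fold were Gdf10, Fst, Ltbp1, Gdf6, Tgfb3, Ltbp2, Tgfb2, Inhbb and Chrdl1, and the largest falls were those of Grem1 and Tgfbr1. They were spread over the range of levels: Inhbb was the fourth most abundant member and Gdf10 one of the least abundant above the filter. The follistatin-like gene Fstl1 had the highest mean level of the family, 485 FPKM over the 8 libraries, at rank 124 of all genes in the table, followed by Grem1 with 370.0 FPKM.

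**Figure D2:**
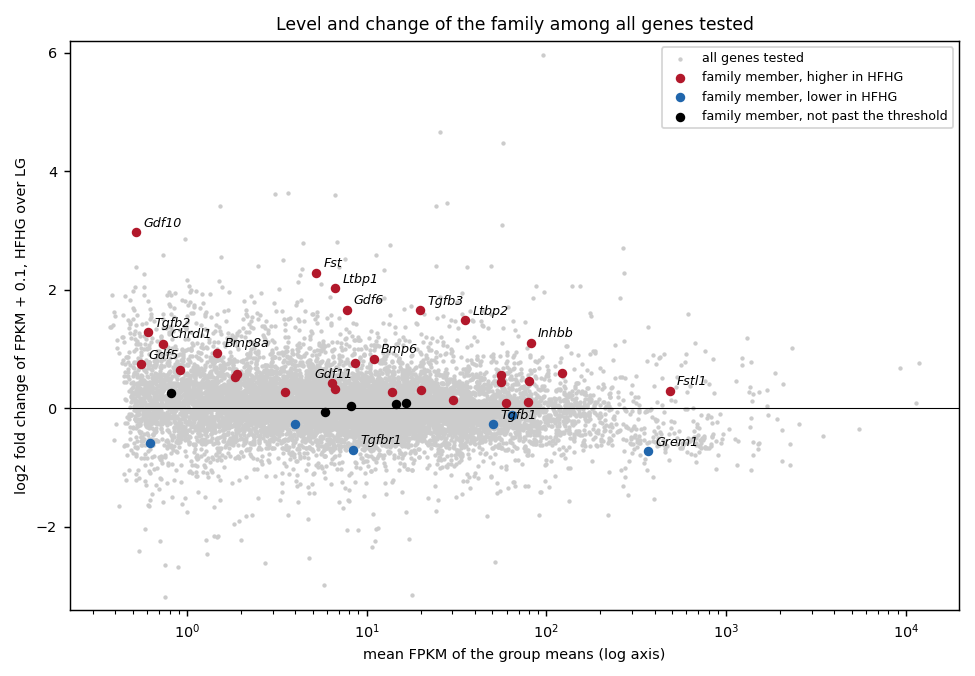
Mean FPKM of the 2 group means on a log axis (x) against the log2 fold change of FPKM + 0.1, HFHG over LG (y), for all genes tested (grey) and the 40 members (red higher, blue lower, black not past the threshold). Members above the zero line outnumber those below it at low and at high levels, and Grem1 is the most abundant member that fell.

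Promoter sequence was looked at for 11 genes, the 9 members past 2-fold and the members with the largest falls, Grem1 and Tgfbr1. The limits for rises and falls thus differ. Bmp8a, Bmp6, Gdf11 and Gdf5, with log2 fold changes of 0.93, 0.83, 0.76 and 0.74, were left out. Grem1 and Tgfbr1, at -0.72 and -0.70, changed less. The table of RefSeq promoters used here (GRCm38) held 7 of them (2 starts each for Ltbp1 and Tgfbr1, of which the most upstream was used), and the promoters of Fst, Gdf6, Tgfb3 and Chrdl1 were not analysed here. Shown 5′ to 3′ on the gene's own strand are the 250 bases before the start of 4 genes that rose and of both that fell, to let the SMAD motifs of the 2 directions be seen side by side. Capitals mark CAGAC, the SMAD box, on either strand (GTCTG), and GGCGCC, a GC-rich SMAD site that reads the same on both strands.
Gdf10 promoter, chr14:33923337-33923586, plus strand: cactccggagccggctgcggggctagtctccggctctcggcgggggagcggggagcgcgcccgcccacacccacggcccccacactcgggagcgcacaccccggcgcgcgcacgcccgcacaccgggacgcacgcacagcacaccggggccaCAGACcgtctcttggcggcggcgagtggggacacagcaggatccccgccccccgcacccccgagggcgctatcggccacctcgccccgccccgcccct
Ltbp1 promoter, chr17:75005279-75005528, plus strand: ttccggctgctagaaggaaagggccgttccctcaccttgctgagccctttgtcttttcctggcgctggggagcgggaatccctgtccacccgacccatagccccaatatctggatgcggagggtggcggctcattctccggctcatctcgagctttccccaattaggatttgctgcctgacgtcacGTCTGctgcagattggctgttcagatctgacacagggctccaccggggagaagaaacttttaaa
Ltbp2 promoter, chr12:84876492-84876741, minus strand: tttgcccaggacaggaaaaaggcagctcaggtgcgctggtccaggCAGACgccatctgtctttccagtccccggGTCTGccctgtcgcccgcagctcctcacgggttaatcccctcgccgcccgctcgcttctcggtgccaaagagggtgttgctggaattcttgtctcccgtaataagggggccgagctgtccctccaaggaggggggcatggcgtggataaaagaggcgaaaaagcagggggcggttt
Tgfb2 promoter, chr1:186705990-186706239, minus strand: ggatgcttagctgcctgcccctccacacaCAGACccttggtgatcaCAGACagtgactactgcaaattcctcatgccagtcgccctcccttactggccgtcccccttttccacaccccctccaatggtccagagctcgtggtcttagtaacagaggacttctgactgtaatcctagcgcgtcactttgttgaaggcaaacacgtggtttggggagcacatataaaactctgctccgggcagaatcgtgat
Grem1 promoter, chr2:113758649-113758898, minus strand: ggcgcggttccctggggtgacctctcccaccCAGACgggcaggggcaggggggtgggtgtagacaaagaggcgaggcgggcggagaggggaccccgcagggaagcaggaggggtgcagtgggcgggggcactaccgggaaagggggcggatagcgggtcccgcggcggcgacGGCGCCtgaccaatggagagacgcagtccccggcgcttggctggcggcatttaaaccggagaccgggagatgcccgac
Tgfbr1 promoter, chr4:47352972-47353221, plus strand: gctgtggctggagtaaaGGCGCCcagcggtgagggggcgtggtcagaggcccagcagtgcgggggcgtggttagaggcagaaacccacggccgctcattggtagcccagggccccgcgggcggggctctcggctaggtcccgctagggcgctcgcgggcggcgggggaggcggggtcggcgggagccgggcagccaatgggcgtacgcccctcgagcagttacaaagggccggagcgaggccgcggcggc
The SMAD box occurs once in the windows of Gdf10, Ltbp1 and Grem1, 2 times in those of Ltbp2 and Tgfb2, and not in those of Tgfbr1 and Inhbb. GGCGCC occurs once each in the windows of Grem1 and Tgfbr1, both of which fell. Of 32536 RefSeq promoter windows of this length, 42.2% hold CAGAC and 9.65% hold GGCGCC, so matches to the first are common. The Tgfb2 window also holds 1 TATAAA, found in 12.3% of all windows, and 1 CACGTG, found in 6.04%. These matches describe letters in a window and not binding. The base composition of the 7 windows ran from 53.6% to 78.8% G and C, above the median of 52.4% over all windows.

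The 3 TGF-beta ligands moved in different directions. Tgfb3, the isoform known from developing tendon, lies at chr12:86056745-86079041 in GRCm38 and had FPKM of 29.5, 30.6, 30.3 and 29.8 in HFHG and 9.27, 9.52, 9.14 and 10.002 in LG. Every HFHG library was more than 2-fold above every LG library, and the means, 30.0 ± 0.494 FPKM in HFHG and 9.48 ± 0.382 FPKM in LG (SD, n = 4), differed 3.17-fold (log2 fold change 1.65, SE 0.038, adjusted p = 2.22e-12). The gene overlaps Ttll5 on the other strand, which was at 0.790 FPKM in HFHG and 0.646 FPKM in LG, far below Tgfb3. Tgfb2 (chr1:186622792-186705989) was low, with 0.864, 0.858, 0.827 and 1.02 FPKM in HFHG and 0.252, 0.212, 0.401 and 0.394 FPKM in LG, from 675 and 232 reads in all. It rose as well (log2 fold change 1.29, SE 0.18, adjusted p = 3.30e-05), but passed the filter through the HFHG libraries alone. Tgfb1 (chr7:25687002-25705077), the most abundant of the 3, went the other way: 44.5, 48.2, 45.2 and 45.2 FPKM in HFHG and 58.5, 53.3, 51.6 and 58.4 FPKM in LG, without overlap (log2 fold change -0.27, SE 0.044, adjusted p = 1.33e-04).

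The make-up of the TGF-beta transcripts differed between the groups. Tgfb1 made up 84.4% to 86.0% of the summed FPKM of the 3 genes in the LG libraries and 59.2% to 60.5% in the HFHG libraries. Tgfb3 made up 13.6% to 15.1% in LG and 38.4% to 39.7% in HFHG. The sum itself was 61.1 to 68.8 FPKM in LG and 74.9 to 79.6 FPKM in HFHG. These shares follow from the levels above and carry no test of their own.

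**Figure D3:**
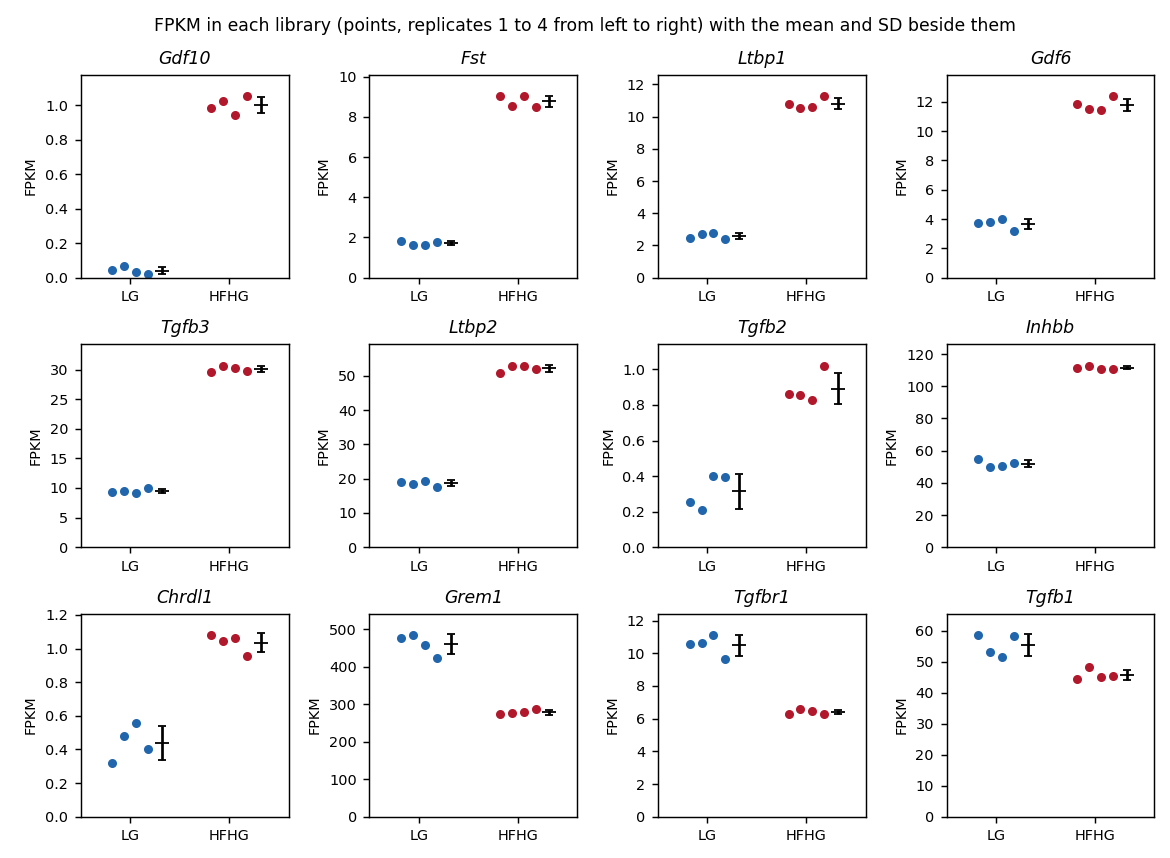
FPKM (y axis, linear from 0) in each LG and HFHG library (points) for the 9 members past 2-fold, Grem1, Tgfbr1 and Tgfb1, with the mean and SD of 4 libraries beside them. In each of the 12 panels the points of the 2 groups do not overlap, but the genes were chosen with these values known. Of all genes tested, 59.2% do not overlap either. Grem1, Tgfbr1 and Tgfb1 are lower in HFHG.

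The latent TGF-beta binding proteins, which link latent TGF-beta or other microfibril components to the matrix, rose in 3 of 4 cases. Ltbp1 (chr17:75005568-75392512) binds the latent TGF-beta complex and anchors it in the matrix. It had 10.8, 10.5, 10.6 and 11.3 FPKM in HFHG and 2.44, 2.72, 2.76 and 2.40 FPKM in LG, a 4.19-fold difference of the means (log2 fold change 2.03, SE 0.061, adjusted p = 2.30e-11). Ltbp2 (chr12:84783212-84876532), a microfibril protein that does not bind latent TGF-beta, had 50.9, 52.7, 52.9 and 52.0 FPKM in HFHG and 19.2, 18.5, 19.3 and 17.5 FPKM in LG (log2 fold change 1.48, SE 0.036, adjusted p = 3.43e-12). Both genes had about the same value in the 4 libraries of a group, and the gap between groups was many times the spread. Ltbp3 (chr19:5740904-5758532), the most abundant of the group, rose less, from 49.1, 47.9, 46.3 and 47.0 FPKM in LG to 64.2, 65.1, 62.8 and 65.5 FPKM in HFHG (log2 fold change 0.44, SE 0.028, adjusted p = 2.93e-08). Ltbp4, at 0.892 ± 0.0863 FPKM in HFHG and 0.737 ± 0.145 FPKM in LG (SD, n = 4), did not pass the threshold (log2 fold change 0.26, SE 0.14, adjusted p = 0.126). The 4 genes summed to 127 to 130 FPKM in HFHG and 67.7 to 71.6 FPKM in LG, and the share of Ltbp2 was 40.1% to 41.6% against 25.9% to 28.0%.

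Tgfbi (chr13:56609523-56639562), a matrix protein named for its induction by TGF-beta, had 8.17, 8.83, 8.68 and 7.63 FPKM in HFHG and 8.28, 7.85, 7.40 and 8.84 FPKM in LG. The groups overlapped and the difference did not pass the threshold (log2 fold change 0.041, SE 0.064, adjusted p = 0.589), with a 95% interval of -0.10 to 0.18. Bmp1 (chr14:70474558-70520234) is named as a BMP but encodes the protease that trims procollagen and frees BMPs from chordin. Its FPKM was 65.4, 69.7, 66.0 and 65.6 in HFHG and 46.6, 44.2, 44.9 and 45.0 in LG, all HFHG values being above all LG values (log2 fold change 0.56, SE 0.030, adjusted p = 5.19e-09). Bmp2k, a kinase gene induced by BMP2, was also higher, at 3.86 ± 0.113 FPKM in HFHG and 3.16 ± 0.143 FPKM in LG (SD, n = 4; log2 fold change 0.28, SE 0.062, adjusted p = 0.00158).

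Of the 10 BMP ligand genes, 5 passed the filter, 4 of them higher and 1 lower in HFHG. Bmp6 (chr13:38345107-38500302), a strong inducer of bone formation, was the most abundant, with 13.5, 14.3, 14.1 and 14.2 FPKM in HFHG and 7.60, 7.39, 7.36 and 9.10 FPKM in LG (log2 fold change 0.83, SE 0.064, adjusted p = 1.57e-07). Its overlapping partner on the other strand, Txndc5, was at 149 and 143 FPKM. Whether the counting used strand is not given in the sources used here, and the part of that gene's reads in the values of Bmp6 was not tested. The remaining BMP ligands were below 3 FPKM. Bmp8a (chr4:123312645-123343252) had 1.69, 1.95, 1.99 and 2.23 FPKM in HFHG and 1.08, 0.802, 1.16 and 0.900 FPKM in LG (log2 fold change 0.93, SE 0.12, adjusted p = 2.78e-05), and its near-identical copy Bmp8b was nearly silent, so the split of reads between them is uncertain. For Bmp5 (chr9:75775364-75900310) the values were 1.22, 1.23, 1.07 and 1.02 FPKM in HFHG and 0.724, 0.756, 0.619 and 0.683 FPKM in LG (log2 fold change 0.64, SE 0.11, adjusted p = 3.23e-04).

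Bmp4 and Bmp2 changed in opposite directions and were both low. Bmp4 (chr14:46383520-46390669) had 2.56, 2.39, 2.02 and 2.11 FPKM in HFHG and 1.18, 1.26, 1.55 and 2.12 FPKM in LG. LG replicate 4 lay inside the HFHG range, so the groups overlapped although the gene passed the test as higher (log2 fold change 0.57, SE 0.15, adjusted p = 0.00567). Bmp2 (chr2:133552159-133562885) had 0.368, 0.618, 0.460 and 0.476 FPKM in HFHG and 0.883, 0.819, 0.752 and 0.630 FPKM in LG, from 248 and 389 reads. It was lower in HFHG (log2 fold change -0.59, SE 0.16, adjusted p = 0.00534), with the highest HFHG value just under the lowest LG value.

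All 5 GDF genes above the filter were higher in HFHG. Gdf10 (chr14:33923587-33937983), related to Bmp3, was near the floor in LG with 0.0467, 0.0663, 0.0302 and 0.0225 FPKM and reached 0.987, 1.03, 0.943 and 1.05 FPKM in HFHG, which is 545 reads against 22 in all. The means differed 24.2-fold, but the size on the log2 scale depends on the constant added (log2 fold change 2.97, SE 0.16, adjusted p = 6.68e-09; 0.94 with 1 FPKM added and 4.38 with 0.01 FPKM added). Gdf10 passed the filter through the HFHG libraries alone. Gdf6 (chr4:9844372-9862345), a ligand of joint and tendon development, rose 3.21-fold, from 3.71, 3.82, 3.99 and 3.17 FPKM in LG to 11.8, 11.5, 11.4 and 12.4 FPKM in HFHG (log2 fold change 1.66, SE 0.068, adjusted p = 4.11e-10). Its relative Gdf5 (chr2:155941023-155945367), known from joint formation, had 0.831, 0.475, 0.838 and 0.731 FPKM in HFHG and 0.377, 0.285, 0.304 and 0.618 FPKM in LG. HFHG replicate 2 lay below LG replicate 4, and the gene passed at log2 fold change 0.74, SE 0.22, adjusted p = 0.0101, but not with quantile normalization (adjusted p = 0.0909).

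Gdf11 (chr10:128882295-128891718), close to myostatin, had 10.9, 9.90, 11.7 and 10.7 FPKM in HFHG and 6.24, 6.69, 6.14 and 6.28 FPKM in LG (log2 fold change 0.76, SE 0.056, adjusted p = 9.95e-08). Gdf15 (chr8:70629393-70632456), a stress-induced distant member, was the most abundant of the GDFs, with 31.1, 33.0, 30.9 and 31.8 FPKM in HFHG and 29.3, 27.2, 27.4 and 32.3 FPKM in LG. The groups overlapped and the difference was small (log2 fold change 0.13, SE 0.050, adjusted p = 0.0380). Leaving out 1 library raised the adjusted p-value of Gdf15 over 0.05 for HFHG replicates 1, 2 and 4 and for LG replicates 1, 2 and 3, to as much as 0.110. Summed over the 10 BMP and GDF ligand genes above the filter, the level was 75.0 to 76.7 FPKM in HFHG and 49.1 to 55.8 FPKM in LG. Gdf15 made up 41.0% to 43.2% of that sum in HFHG and 55.4% to 57.8% in LG, and Gdf6 15.0% to 16.1% against 5.69% to 8.10%.

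Activin and inhibin genes were among the most abundant ligands and all 3 above the filter rose. Inhbb (chr1:119415465-119422248), the subunit of activin B, had 112, 113, 111 and 111 FPKM in HFHG and 54.6, 49.9, 50.6 and 52.4 FPKM in LG, a 2.15-fold difference of the means (log2 fold change 1.10, SE 0.030, adjusted p = 9.11e-12). Inhba, the subunit of activin A, was at 92.0 ± 2.21 FPKM in HFHG and 67.4 ± 4.93 FPKM in LG (SD, n = 4; log2 fold change 0.45, SE 0.046, adjusted p = 2.20e-06). In LG, Inhbb made up 41.2% to 46.5% of the summed FPKM of these beta subunits, and in HFHG 54.0% to 55.6%. The order of the pair thus turned in FPKM, but it rests on the gene lengths used. These were 12477 bases for Inhba and 4257 for Inhbb, from an annotation that is not given. In reads Inhba stayed the higher, with 166674 against 68929 in HFHG and 119174 against 31250 in LG. Their sum was 201 to 205 FPKM in HFHG and 113 to 122 FPKM in LG. Inha (chr1:75507077-75510366), the alpha subunit that pairs with a beta subunit to form inhibin, stayed low at 2.03, 2.07, 2.59 and 2.12 FPKM in HFHG and 1.42, 1.55, 1.33 and 1.66 FPKM in LG, and was higher in HFHG (log2 fold change 0.53, SE 0.10, adjusted p = 5.54e-04).

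Of 6 secreted antagonists above the filter, 5 were higher (all genes tested: 34.0%) and 1, the most abundant, was lower (all genes: 30.8%). Fst (chr13:114452290-114458951), follistatin, which binds activins and keeps them from their receptors, had 9.02, 8.51, 9.02 and 8.50 FPKM in HFHG and 1.84, 1.63, 1.63 and 1.80 FPKM in LG. That is a 5.08-fold difference of the means (log2 fold change 2.28, SE 0.064, adjusted p = 1.20e-11). Its relative Fstl3, at a much higher level of 81.6 ± 2.46 FPKM in HFHG and 75.9 ± 3.41 FPKM in LG (SD, n = 4), passed the threshold with a small difference (log2 fold change 0.11, SE 0.035, adjusted p = 0.0182) and did not pass without HFHG replicate 3 (adjusted p = 0.0586) or LG replicate 2 (0.0530).

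The BMP antagonists differed among themselves. Grem1 (chr2:113746164-113758646), gremlin 1, fell: its FPKM was 273, 276, 278 and 287 in HFHG and 478, 484, 459 and 424 in LG, with no overlap (log2 fold change -0.72, SE 0.037, adjusted p = 3.06e-09). Chrdl1 (chrX:143285674-143394262), chordin-like 1, had 1.08, 1.04, 1.06 and 0.953 FPKM in HFHG and 0.318, 0.480, 0.558 and 0.402 FPKM in LG (log2 fold change 1.09, SE 0.15, adjusted p = 3.30e-05). Chrd, chordin, was at 7.43 ± 0.599 FPKM in HFHG and 5.90 ± 0.209 FPKM in LG (SD, n = 4; log2 fold change 0.33, SE 0.061, adjusted p = 4.71e-04). Nog, noggin, was below the filter at 0.262 ± 0.107 FPKM in HFHG and 0.209 ± 0.0870 FPKM in LG (SD, n = 4), from 73 and 57 reads, and its difference was not detectable at this depth (exact two-sided permutation test, p = 0.514). Fstl1 (chr16:37776873-37836514), a secreted glycoprotein with a follistatin-like domain, had 523, 536, 539 and 537 FPKM in HFHG and 434, 445, 438 and 425 FPKM in LG, a rise without overlap (log2 fold change 0.29, SE 0.021, adjusted p = 8.91e-08; 0.53 with quantile normalization).

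**Figure D4:**
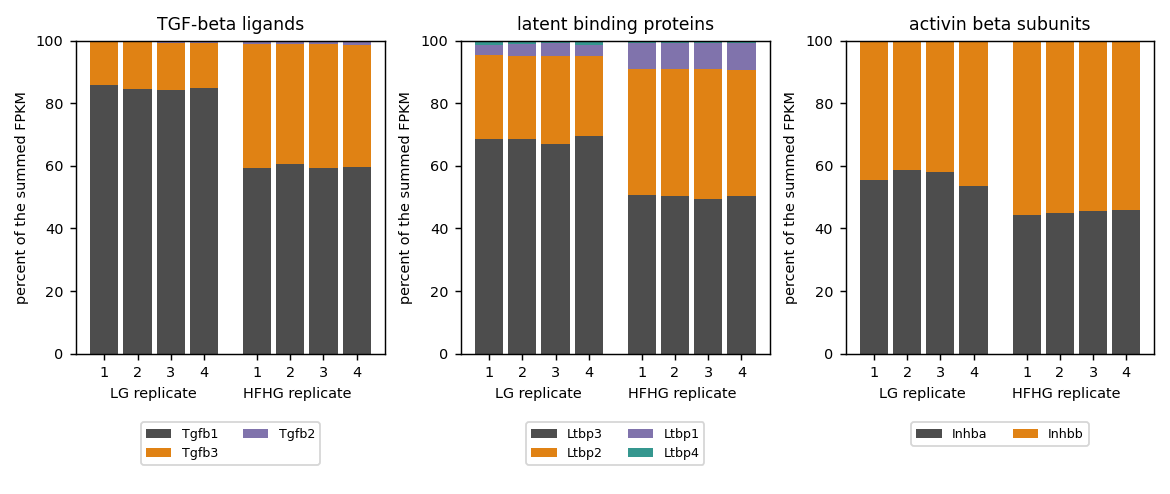
Percent of the summed FPKM of each set (y axis) that each gene made up in the 4 LG and 4 HFHG libraries (x axis), for the TGF-beta ligands, the latent TGF-beta binding proteins and the activin beta subunits. Tgfb3, Ltbp2 and Inhbb hold a larger share in each HFHG library than in any LG library, for example Tgfb3 38.4% to 39.7% against 13.6% to 15.1%.

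No receptor reached 2-fold. Of 10 receptor and co-receptor genes above the filter, 4 were higher, 3 were lower and 3 did not pass the threshold, which is close to the shares of all genes tested (34.0% higher and 30.8% lower). Tgfbr1 (chr4:47353222-47414931), the type I receptor of TGF-beta, changed most: its FPKM was 6.26, 6.59, 6.47 and 6.31 in HFHG and 10.6, 10.6, 11.1 and 9.62 in LG (log2 fold change -0.70, SE 0.052, adjusted p = 1.04e-07). Tgfbr2 (chr9:116084293-116175360), its type II partner and the most abundant receptor, had 59.7, 62.4, 63.3 and 61.0 FPKM in HFHG and 67.6, 69.2, 65.2 and 65.0 FPKM in LG. The fall was small (log2 fold change -0.12, SE 0.030, adjusted p = 0.00460), and with the FPKM of each library rescaled to the same sum it did not pass (-0.057, adjusted p = 0.164). Tgfbr3 (chr5:107106570-107289629), the co-receptor betaglycan, was slightly higher, with 59.9, 61.6, 60.7 and 61.5 FPKM in HFHG and 57.4, 58.6, 58.5 and 55.7 FPKM in LG (log2 fold change 0.082, SE 0.027, adjusted p = 0.0169).

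Among the other type I receptors, the activin receptor Acvr1b (chr15:101174067-101213684) had 7.73, 7.10, 7.12 and 7.28 FPKM in HFHG and 5.56, 5.40, 5.83 and 4.97 FPKM in LG, and was higher (log2 fold change 0.42, SE 0.059, adjusted p = 4.21e-05). Acvrl1 (chr15:101128522-101145336), the receptor of Gdf2 (BMP9) and Bmp10 known from endothelium, was the most abundant of the type I receptors, with 22.2, 22.5, 22.0 and 21.6 FPKM in HFHG and 17.3, 17.8, 17.2 and 18.9 FPKM in LG (log2 fold change 0.31, SE 0.038, adjusted p = 1.32e-05). Both genes had groups that did not overlap. Bmpr1b (chr3:141837136-142169425), a BMP and GDF5 receptor, was lower, with 3.73, 3.45, 3.50 and 3.85 FPKM in HFHG and 4.33, 4.38, 4.68 and 4.12 FPKM in LG (log2 fold change -0.26, SE 0.064, adjusted p = 0.00307). The BMP receptors Bmpr1a (chr14:34410734-34503341; 17.1, 16.4, 16.9 and 17.7 FPKM in HFHG and 15.5, 16.6, 16.4 and 15.4 FPKM in LG) and Acvr1 (chr2:58388644-58567157; 15.0, 14.4, 14.9 and 15.1 FPKM in HFHG and 13.9, 13.6, 14.3 and 14.5 FPKM in LG) overlapped between the groups. Neither passed (log2 fold change 0.089, SE 0.041, adjusted p = 0.0721 for Bmpr1a; log2 fold change 0.077, SE 0.038, adjusted p = 0.0935 for Acvr1). Both did with the FPKM rescaled to the same sum (adjusted p = 0.0122 and 0.00717), and Bmpr1a did without LG replicate 2 (adjusted p = 0.0463) and by limma-voom on the reads recovered from the FPKM (adjusted p = 0.0388).

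The type II receptor Bmpr2 (chr1:59763400-59879014) was higher, with 14.9, 14.9, 15.3 and 15.8 FPKM in HFHG and 12.4, 13.9, 12.6 and 11.3 FPKM in LG (log2 fold change 0.28, SE 0.057, adjusted p = 8.50e-04). Acvr2a (chr2:48814109-48903269), a type II receptor of activins and BMPs, had 5.61, 5.65, 5.75 and 5.83 FPKM in HFHG and 5.87, 6.02, 6.49 and 5.45 FPKM in LG, which overlapped (log2 fold change -0.058, SE 0.059, adjusted p = 0.404; 95% interval -0.19 to 0.070). Tgfbr1 made up 8.70% to 9.35% of the summed FPKM of the 6 type I receptors in HFHG and 14.2% to 15.9% in LG, while the sum was 70.4 to 72.0 FPKM and 67.2 to 69.6 FPKM. Tgfbr2 made up 73.8% to 75.2% of the type II receptors in HFHG and 77.4% to 79.6% in LG.

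The 18 members below the filter were Bmp3, Bmp7, Bmp8b, Bmp10, Bmp15, Gdf2, Gdf3, Gdf7, Gdf9, Inhbc, Inhbe, Acvr1c, Acvr2b, Tgfbr3l, Chrdl2, Fstl4, Fstl5 and Nog. Of these, 13 had reads in at least 4 libraries and were compared by an exact permutation test (two-sided, all 70 ways to split the 8 libraries into 4 and 4), whose smallest possible p-value is 0.0286. Bmp3 reached it, with 37 reads in HFHG and 3 in LG, and the other 12 had p-values of 0.143 or more. These p-values are unadjusted, and none passes the threshold once the 13 comparisons are adjusted for. Acvr2b was the nearest to the filter, at 0.344 ± 0.0825 FPKM in HFHG and 0.265 ± 0.0350 FPKM in LG (SD, n = 4). Gdf2 had 8 reads in the HFHG libraries and 0 in the LG libraries, and 0 reads allows up to 0.0277 to 0.0293 FPKM in an LG library when 3 reads are taken as the limit. Bmp10 had 18 reads in LG and 0 in HFHG, with limits of 0.0202 to 0.0213 FPKM. These limits cover counting error only.

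Further genes of the pathway were taken from 4 lists of 99 genes outside the family, chosen with earlier results of these data known. Of these genes, 75 passed the filter, 41 higher and 14 lower in HFHG (54.7% and 18.7%, with the background given above). The first list, 21 SMADs and SMAD regulators, had 20 genes above the filter. Of these, 6 were higher (30%, against 34.0% of all genes tested), 5 lower (25%, against 30.8%) and 9 not past the threshold. Both shares were close to those of all genes and slightly below them. Tgif1, a repressor that binds SMADs, had 15.4, 13.5, 14.3 and 14.2 FPKM in HFHG and 28.8, 28.7, 28.4 and 30.2 FPKM in LG (log2 fold change -1.01, SE 0.042, adjusted p = 4.75e-10). Smurf1, a ubiquitin ligase of BMP SMADs, was at 24.2 ± 0.763 FPKM in HFHG and 37.1 ± 0.672 FPKM in LG (SD, n = 4; log2 fold change -0.61, SE 0.032, adjusted p = 4.39e-09), and the TGF-beta activated kinase Map3k7 at 22.2 ± 0.537 FPKM in HFHG and 14.9 ± 0.660 FPKM in LG (SD, n = 4; log2 fold change 0.58, SE 0.040, adjusted p = 5.84e-08). The SMADs of the TGF-beta branch, Smad2 and Smad3, did not pass, with log2 fold changes of -0.086 and 0.021. Of the inhibitory SMADs, Smad6 was higher and Smad7 lower, with log2 fold changes of 0.35 and -0.23.

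In the second list, 37 extracellular modulators and activators, 25 were above the filter. Of these, 14 were higher (56%, against 34.0% of all genes tested), 4 lower (16%, against 30.8%) and 7 not past the threshold. Its 3 largest changes were those of Kcp, a chordin-related protein, at 0.997 ± 0.0609 FPKM in HFHG and 0.339 ± 0.0617 FPKM in LG (SD, n = 4; log2 fold change 1.33, SE 0.14, adjusted p = 3.05e-06), of Emilin1, a matrix protein that limits TGF-beta processing, at 55.6 ± 1.10 FPKM in HFHG and 24.0 ± 0.750 FPKM in LG (SD, n = 4; log2 fold change 1.21, SE 0.032, adjusted p = 6.18e-12), and of Thbs1. Thbs1, thrombospondin 1, an activator of latent TGF-beta, was at 1821 ± 31.6 FPKM in HFHG and 806 ± 31.5 FPKM in LG (SD, n = 4; log2 fold change 1.18, SE 0.028, adjusted p = 2.62e-12). Cfc1, also of this list, was not analysed here.

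The TGF-beta and BMP target lists were chosen with earlier results of these data known, so their shares describe the lists and are no test. Tgfbi, named for its induction by TGF-beta and not past the threshold, is counted with the family and not here. All 23 genes of the TGF-beta target list passed the filter. Of these, 16 were higher (69.6%, against 34.0% of all genes tested), 5 lower (21.7%, against 30.8%) and 2 not past the threshold. The largest changes were in Itga11, a collagen receptor, at 5.30 ± 0.551 FPKM in HFHG and 1.24 ± 0.0885 FPKM in LG (SD, n = 4; log2 fold change 2.01, SE 0.088, adjusted p = 7.28e-10), Cnn1, a calponin, at 9.33 ± 0.834 FPKM in HFHG and 3.39 ± 0.526 FPKM in LG (SD, n = 4; log2 fold change 1.44, SE 0.098, adjusted p = 4.99e-08), and the collagen gene Col1a1, at 529 ± 8.68 FPKM in HFHG and 206 ± 3.95 FPKM in LG (SD, n = 4; log2 fold change 1.36, SE 0.022, adjusted p = 1.95e-13). Direct targets often used as readouts differed: Ccn2 rose, with a log2 fold change of 0.35, and Pmepa1 and Fn1 fell, with -0.13 and -0.78. Of the 18 BMP target genes, 7 passed the filter, 5 of them higher (71.4%, against the same 34.0%) and 0 lower, and 2 did not pass the threshold. Atoh8 had 5.43, 6.01, 6.30 and 5.31 FPKM in HFHG and 0.285, 0.386, 0.336 and 0.537 FPKM in LG (log2 fold change 3.62, SE 0.14, adjusted p = 2.28e-10), and Id1 had 19.5, 20.3, 20.1 and 21.1 FPKM in HFHG and 8.05, 5.90, 6.53 and 6.80 FPKM in LG (log2 fold change 1.56, SE 0.075, adjusted p = 1.88e-09), both without overlap. Msx1 was at 1.38 ± 0.424 FPKM in HFHG and 0.786 ± 0.0679 FPKM in LG (SD, n = 4; log2 fold change 0.70, SE 0.17, adjusted p = 0.00352), and Id3 at 80.9 ± 3.52 FPKM in HFHG and 50.8 ± 1.91 FPKM in LG (SD, n = 4; log2 fold change 0.67, SE 0.037, adjusted p = 6.37e-09). The osteogenic factor Runx2 rose by a log2 fold change of 0.21, and the osteoblast factor Sp7 stayed below the filter.

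**Figure D5:**
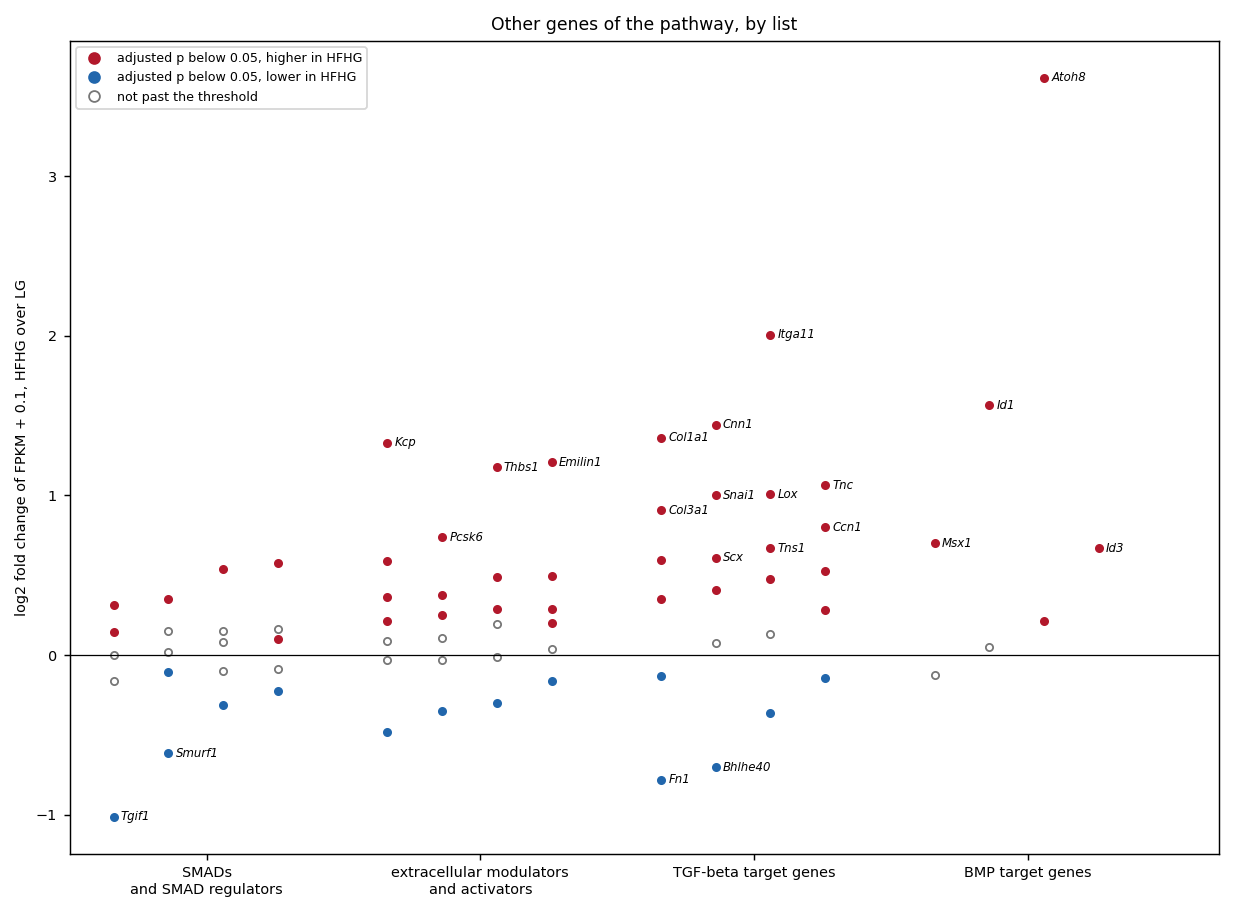
Log2 fold change of FPKM + 0.1, HFHG over LG (y axis), for the 75 genes of the 4 pathway lists above the filter (x axis, spread sideways only for legibility), with those beyond 0.6 named. Target genes of both branches, from lists chosen with earlier results of these data known, lie mostly above zero. The lowest point is Tgif1 at -1.01.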

How the data were processed

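mRNA of 8 TSC cultures, 4 in HFHG and 4 in low glucose medium, was sequenced from stranded libraries. Sample titles gave the group and replicate number, and the paper gave the media. The authors deposited FPKM for 19301 genes, and their processing notes name HISAT2 2.1.0 and mm10 (GRCm38). The counting program, annotation, strand setting and filters are not given in the sources used here, so values of overlapping genes and near-identical copies are uncertain. Replicates were not pooled, and 0 columns of per-sample values were left unused.

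Family members were found by symbol, and all 58 matched GENCODE M21, which gave positions. Members, roles and pathway lists were chosen with earlier results of these data known. Genes with at least 0.5 FPKM in at least 4 of 8 libraries (11710) were compared with limma 3.58.1 in R 4.3.3 (lmFit, eBayes with an intensity trend) on log2(FPKM + 0.1), HFHG minus LG, with Benjamini-Hochberg adjustment over all genes tested. A log2 fold change on this scale understates the change of low genes. Calls used an adjusted p below 0.05 or the fold rule of the paper, a log2 change beyond 1 with an unadjusted p below 0.05. Members below the filter were compared with an exact permutation test. The values of 1 member above the filter are not reported here, although it is counted.

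Values in every library are given for members called with a log2 fold change of at least 0.5 in either direction, the most abundant member of each role and each receptor above the filter, and the 3 largest called changes are named per pathway list. Other pathway genes named, and the values shown per library for pathway genes, were chosen after their values were seen. Whole reads behind the FPKM were recovered for 19300 of 19301 genes (tolerance 0.0001 reads) and lay 99.8% to 99.9% on listed genes. On simulated data with log2 changes of 1 in either direction, limma found 194 of 200 changed genes among 11710, with 9 false calls. Smaller changes, such as many of those called here, were not simulated. Alternatives tried: adding 1 or 0.01 FPKM in place of 0.1, testing without a filter, a minimum of 1 FPKM, 3 other scalings, the replicate number as a block, limma-voom on the recovered reads and each library left out.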

Additional observations from a re-analysis of the deposited data

Results flagged for a closer look

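In 4 of the 80 sets of 4 libraries (40 members in 2 groups), 1 library lay apart from the other 3 by more than Dixon's 95% critical value for 4 samples, and chance alone gives about 4. Bmp1 was at 69.7 FPKM in HFHG replicate 2, with the others at 65.4 to 66.0 FPKM, and its log2 fold change was 0.54 without that library. Bmp2k was at 4.03 FPKM in HFHG replicate 1, with the others at 3.79 to 3.81 FPKM, and its log2 fold change was 0.26 without it. Bmp6 was at 9.10 FPKM in LG replicate 4, with the others at 7.36 to 7.598 FPKM, and its log2 fold change was 0.90 without it. Inha was at 2.59 FPKM in HFHG replicate 3, with the others at 2.03 to 2.12 FPKM, and its log2 fold change was 0.46 without it. All 4 genes stayed past the threshold by limma without the library named.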

How the results depend on the processing

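Of the 35 members called, 31 stayed past the threshold in the same direction under each of the 17 alternatives that tested them, and Fstl3, Gdf15, Gdf5 and Tgfbr2 lost it at least once. None of the 35 changed sign. The number of members higher ran from 25 (minimum of 1 FPKM) to 31 (rescaled to the same sum), that of members lower from 5 to 6, and that of members more than 2-fold higher from 6 to 10. The 6 were reached with a pseudocount of 1, which put Gdf10, Tgfb2 and Chrdl1 at log2 fold changes of 0.94, 0.53 and 0.50, and with a minimum of 1 FPKM, which left these genes untested. Without 1 library the counts were 28 to 29 higher, 6 lower and 8 to 10 more than 2-fold higher. Rescaling to the same sum raised the small changes of Fstl3, Gdf15 and Tgfbr3 to 0.17, 0.19 and 0.14. limma-voom on the recovered reads called 30 members higher, 6 lower and 10 more than 2-fold higher. Quantile normalization moved Fstl1 to 0.53 and Grem1 to -0.48. Acvr2a, not past the threshold, changed sign when rescaled to the same sum (0.00060, adjusted p = 0.995). Scaling moved the median log2 fold change of all genes between -0.022 and 0.075.

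With the replicate number as a block, 29 members were higher and 6 lower, 9 by more than 2-fold, and 40 and 14 pathway genes were called. The deviations of libraries with the same number correlated at -0.074 to -0.0056, and no library correlated best with its own number, so the numbers were not taken to pair the samples. Members under about 1 FPKM rest on few reads, and their fold changes depend most on the pseudocount.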
